A study of Rattus norvegicus with 415 samples.

Results

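The immediate early genes described here were 9 of the 18358 genes measured in rat adipose tissue. They were taken by their Ensembl identifiers and not by their levels: Fos (ENSRNOG00000008015), Fosb (ENSRNOG00000046667), Jun (ENSRNOG00000026293), Junb (ENSRNOG00000042838), Atf3 (ENSRNOG00000003745), Egr1 (ENSRNOG00000019422), Nr4a1 (ENSRNOG00000007607), Dusp1 (ENSRNOG00000003977) and Btg2 (ENSRNOG00000003300). All 9 were present in the table and passed the filter on low values, which kept 16131 genes. The pairing of these identifiers with symbols was given with the list and was not checked against an annotation here. Earlier results of these data were known when the list was chosen.

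The series measured gene expression by RNA sequencing in the fat of outbred rats aged 17 weeks, in a study that sought genomic regions behind metabolic traits and asked which genes' expression linked the 2. All samples had the same tissue and age labels and no treatment label, so they formed 1 group and no groups of the study could be compared. Each sample title joined a number to a suffix, neither of which the labels explain, and 89 of the numbers stood on more than 1 sample. Fat depot, sex, strain composition and time of collection were not given in the labels used here.

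Immediate early genes are transcribed within minutes of a stimulus, without the need for new protein, from regulators already present in the cell. Serum, growth factors, hormones, cyclic AMP and mechanical or surgical stress can all induce them, and most of their messenger RNAs decay quickly. In fat and other tissues their level is therefore read as a record of the period shortly before the tissue was frozen. Several of them encode transcription factors (Fos, Fosb, Jun, Junb, Atf3, Egr1, Nr4a1), and others encode brakes on signalling or growth (Dusp1, Btg2).

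Recovered reads in genes ranged from 2139163 to 6248214 per sample, with a median of 4602134, and 12 samples had fewer than 3500000. Gaps of more than 500 between neighbouring title numbers separated the samples into block 1 (title numbers 57215 to 59114, 39 samples), block 2 (60213 to 63056, 55.9% of samples) and block 3 (63906 to 64305, 34.7%). The blocks are runs of the numbering, and nothing in the labels says that they are batches. The labelled tissue was not checked against markers of fat or of other cells, because the identifiers of other genes could not be paired with names here. In bulk tissue, fewer expressing cells and less RNA per cell cannot be told apart. Nothing in the labels says which samples came from separate animals, so p-values over samples measure the spread between these samples, part of which may be technical.

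Promoters of 6 of the 9 genes (Fosb, Junb, Egr1, Nr4a1, Dusp1 and Btg2) were matched by symbol in the RefSeq table of the GRCr8 assembly, which holds 33469 windows of 300 bases, 250 before and 50 after each gene's start. Fos, Jun and Atf3 had no entry there. The 4 stretches below, each the 250 bases before the start in the 5′ to 3′ direction of the gene, are shown because these genes, all inducible, differ in their copies of the cyclic AMP response element (CRE), which CREB proteins bind. All motifs were searched on both strands. Capitals mark a CRE (TGACGTCA), the CRE core (TGACG on either strand) or a TATA box (TATAAA).
Dusp1 (chr10:17184603-17184852, plus strand): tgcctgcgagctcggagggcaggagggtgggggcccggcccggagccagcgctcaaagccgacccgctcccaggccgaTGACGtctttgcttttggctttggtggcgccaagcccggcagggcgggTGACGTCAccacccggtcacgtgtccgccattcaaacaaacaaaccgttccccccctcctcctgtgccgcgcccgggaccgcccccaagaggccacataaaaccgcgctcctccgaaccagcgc
Btg2 (chr13:48087691-48087940, minus strand): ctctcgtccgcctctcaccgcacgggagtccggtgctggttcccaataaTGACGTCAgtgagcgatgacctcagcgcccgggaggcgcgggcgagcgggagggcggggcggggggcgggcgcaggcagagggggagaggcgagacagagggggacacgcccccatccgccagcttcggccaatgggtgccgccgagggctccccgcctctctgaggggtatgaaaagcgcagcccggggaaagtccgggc
Nr4a1 (chr7:134259888-134260137, plus strand): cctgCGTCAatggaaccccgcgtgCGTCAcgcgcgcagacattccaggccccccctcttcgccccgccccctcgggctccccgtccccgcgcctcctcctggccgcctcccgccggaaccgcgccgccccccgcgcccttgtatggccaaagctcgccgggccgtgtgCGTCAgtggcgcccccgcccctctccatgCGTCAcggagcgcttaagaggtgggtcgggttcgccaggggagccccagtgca
Junb (chr19:40080876-40081125, plus strand): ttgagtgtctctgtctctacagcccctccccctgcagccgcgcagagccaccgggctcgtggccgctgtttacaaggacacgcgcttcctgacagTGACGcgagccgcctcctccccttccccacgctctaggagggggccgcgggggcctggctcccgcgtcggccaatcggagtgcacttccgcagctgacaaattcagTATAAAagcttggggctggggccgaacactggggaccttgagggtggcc

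The full CRE was found in 2 of the 6 promoters, against 1.83% of all windows. In Dusp1 it began at position -124 and in Btg2 at position -201, counted from the gene's start. The core TGACG, contained in every full CRE, was found in 5 of the 6, against 21.2% of windows. Nr4a1 carried 4 copies of the core, at -246, -226, -82 and -53, without a full CRE, whereas Junb carried 1 copy, at -155, beside a TATA box at -49. The CArG box, the binding motif of serum response factor, was found in 1 of the 6, Egr1, which held 2 copies starting at -105 and -83, against 1.64% of windows. Egr1 also held 2 copies of the core, at -135 and -66. The AP-1 motif (TGANTCA) was in 0 of the 6 windows and in 7.33% of all, and the EGR motif (GCGNGGGCG) was in 2 of them, Nr4a1 and Btg2, and in 4.98% of all. The TATA box (TATAAA) was in 14.2% of all windows and in 2 of the 6, on the gene's own strand in Junb and on the opposite strand, at -180, in Fosb. Motif matches describe letters only, and binding was not measured.

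Levels are given in FPKM, that is reads divided by gene length and by depth, so that genes of different length share a scale. The order of the medians over all samples was Fosb, Atf3, Nr4a1, Egr1, Fos, Junb, Jun, Btg2 and Dusp1. Jun and Btg2, with medians of 48.3 and 49.4 FPKM, differed by less than the SD of either gene, and so did Egr1 and Fos.

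Fos and Fosb encode the variable partners of the AP-1 transcription factor, and they were among the most variable genes. The lowest, median and highest level of Fos were 1.85, 12.1 and 101.4 FPKM, a 54.7-fold range around a mean of 15.1 ± 10.7 (SD over all samples, as for the other genes). Its SD on the log2(FPKM + 1) scale was 0.81, at percentile 93.5 of the kept genes, whose median SD was 0.24. The distribution had a long upper end: 54 samples lay above 2 times the median and 7 above 4 times, while 36 lay below 0.5 times the median. The highest value, in the sample with title number 62378 and suffix 4, stood apart from the second highest, 55.3 FPKM.

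Fosb was the lowest of the 9 genes, with 0.112, 1.66 and 22 FPKM as lowest, median and highest, and a mean of 2.33 ± 2.19 FPKM. Its coefficient of variation, 94%, was the highest of the 9, and 20 samples exceeded 4 times its median. The lowest value rested on 1 read, so the range from lowest to highest is not given as a fold. The highest value came from the same sample as the highest Fos.

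Jun and Junb encode the AP-1 subunits with which Fos proteins pair. Jun varied little, from 22.8 through a median of 48.3 to 82.7 FPKM (mean 48.6 ± 7.07), and no sample exceeded 2 times its median. Its SD of 0.21 stood at percentile 43, near the middle of all genes. Junb lay between Jun and Fos in spread, with 10.1, 22.5 and 57.5 FPKM as lowest, median and highest and an SD of 0.36, and its 2 samples above 2 times the median included the sample highest in Fos. Atf3, a stress-induced partner and repressor of the same protein family, ran from 1.59 through 4.28 to 14.6 FPKM with an SD of 0.43, and 22 samples exceeded 2 times its median.

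Egr1, a zinc finger transcription factor, and Nr4a1, an orphan nuclear receptor, varied nearly as much as Fos. Egr1 had 2.89, 9.85 and 43.2 FPKM as lowest, median and highest, with a mean of 12 ± 7.05, and 50 samples above 2 times the median. Nr4a1 had 0.675, 5.46 and 47.2 FPKM with a mean of 6.38 ± 4.52, and 44 samples above 2 times the median. Both had an SD of 0.72 and stood at percentile 91.8.

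Dusp1, the phosphatase that switches off MAP kinases, and Btg2, an antiproliferative cofactor of messenger RNA decay, were with Jun the 3 most abundant of the 9 and the 3 with the lowest spread. These 3 also had the most reads per base, 0.284 for Dusp1, 0.230 for Btg2 and 0.224 for Jun. In 1286 genes with 0.2 to 0.3 reads per base, reads rose less than in proportion to depth (slope 0.87, where 1 is proportional). The slopes of the 3 genes themselves were 0.81 for Dusp1, 0.96 for Jun and 1.15 for Btg2. Whether depth narrows the spread of the 3 genes was not tested. Dusp1 ran from 32 through 61.7 to 99.6 FPKM (mean 61.9 ± 13.5) with an SD of 0.32. Btg2 ran from 26.4 through 49.4 to 83.5 FPKM (mean 49.7 ± 7.27) with an SD of 0.21. Neither gene had a sample above 2 times or below 0.5 times its median. The 9 genes thus ranged from percentile 42.6 (Btg2) to 93.5 (Fos) in the SD of log2(FPKM + 1). With a pseudocount of 0.1 instead of 1, the SD of Fosb (0.99) exceeded that of Fos (0.87).

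**Figure D1:**
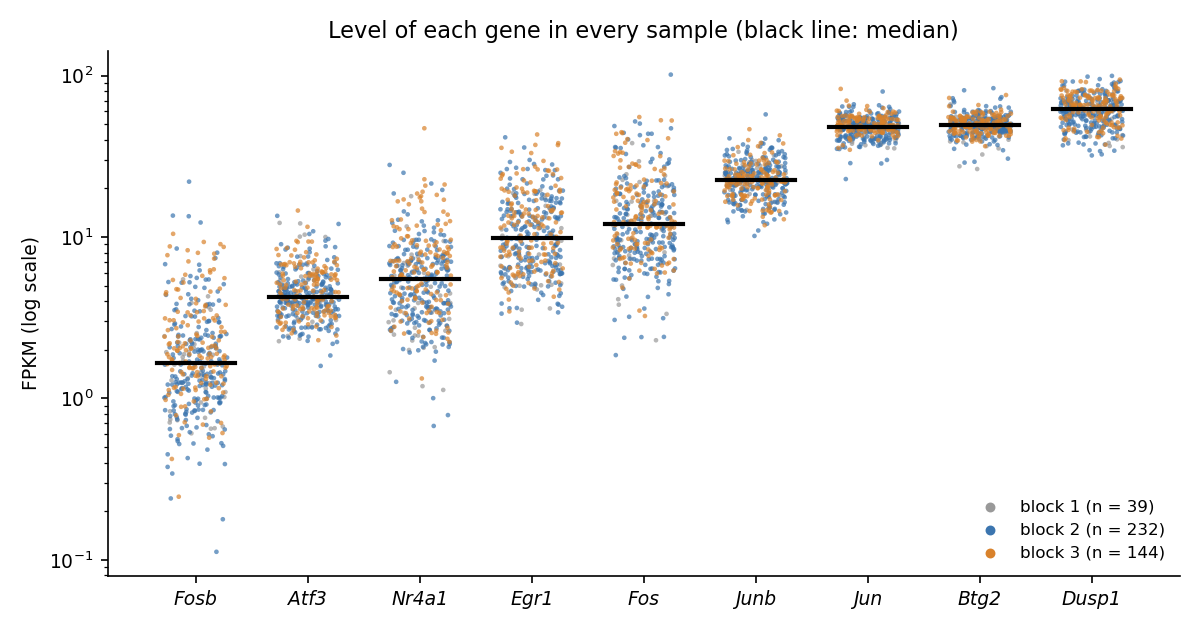
FPKM of each of the 9 genes in every sample on a log axis, ordered by median, with points for samples coloured by block and black lines for the median. Fosb, Fos, Egr1 and Nr4a1 spread widely, whereas Jun, Btg2 and Dusp1 each stay within a 4-fold range.

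Counting error was a small part of these spreads. The variance of FPKM was 55.2 times that from counting reads for Fos, 59.6 times for Egr1, 39.2 times for Nr4a1 and 35.7 times for Fosb. For Dusp1, Jun, Junb, Btg2 and Atf3 it was 25.6, 14.3, 13.1, 12.4 and 10.2 times. Mean reads per sample ran from 41.2 for Fosb to 692 for Jun.

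The sample highest in Fos was not high in every gene. It had 101.4 FPKM of Fos, 22 of Fosb, 57.5 of Junb and 41.4 of Egr1, between 2.55 and 13.3 times their medians. Atf3, at 9.48 FPKM, was at 2.22 times its median. Nr4a1, at 6.27 FPKM, was at 1.15 times its median in that sample, and Jun, Dusp1 and Btg2 were at 1.13, 1.17 and 1.06 times theirs. The sample with title number 62857 and suffix 4 differed from it, with 52 FPKM of Fos, 35.8 of Egr1 and 28 of Nr4a1. That sample was among the 21 highest samples of 8 of the 9 genes. At the other end, the sample lowest in Fos (title number 61172, suffix 3) had 1.85 FPKM of Fos and 3.70 of Egr1 but 50.9 of Jun and 50.3 of Btg2, close to the medians of those 2 genes.

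Among the 21 highest samples of each gene, Egr1 and Nr4a1 shared 14. Fos shared 8 with each of Fosb, Egr1 and Junb, and Jun shared 8 with Nr4a1. Btg2 shared 0 with Fos, Fosb and Atf3, 2 with Jun and Dusp1, 3 with Egr1 and Nr4a1 and 4 with Junb. Atf3 and Dusp1 also shared 2. How many samples genes outside the list share was not computed, so a low count does not set Btg2 or another gene apart. In all, 74.2% of samples were among the highest 21 of none of the 9 genes. The like share for 9 unrelated genes was not computed either.

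The genes were then compared pair by pair across all samples, as Pearson r and Spearman rho of log2(FPKM + 1), with two-sided permutation p-values from 100000 permutations, of which 1e-05 is the smallest possible. All 36 pairs were computed. The adjusted p of a pair came from a limma fit of all other genes on the first gene of the pair, with Benjamini-Hochberg adjustment over 16130 genes. By that measure 31 of the 36 pairs passed an adjusted p of 0.05. The same fits called from 17.7% (Fosb) to 57.8% (Nr4a1) of all genes, so that passing was common for most of them. All 28 pairs that did not involve Btg2 were positive and passed, with r between 0.186 (Junb and Nr4a1) and 0.700 (Egr1 and Nr4a1) and a median of 0.371.

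Egr1 and Nr4a1 had the highest r of the 36, 0.700 (rho 0.683, both permutation p = 1e-05, adjusted p from limma 8.338e-59). Without the 2 samples farthest from the median of Egr1, r was 0.701. Within blocks 1, 2 and 3 it was 0.486, 0.690 and 0.733.

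Fos followed Egr1 and Fosb almost equally. For Fos and Egr1 r was 0.665 (rho 0.636, both permutation p = 1e-05, adjusted p from limma 1.507e-50), 0.654 without the 2 farthest samples, and 0.617, 0.636 and 0.706 within the 3 blocks. For Fos and Fosb r was 0.661 (rho 0.613, both permutation p = 1e-05, adjusted p from limma 6.192e-50), 0.645 without the 2 farthest samples, and 0.640, 0.673 and 0.615 within the blocks. Fosb and Egr1 closed this triangle with an r of 0.634 (rho 0.576, both permutation p = 1e-05, adjusted p from limma 2.695e-44), 0.619 without the 2 farthest samples and 0.638, 0.630 and 0.616 within the blocks.

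The remaining partners of Fos followed it less closely. Fos and Junb had an r of 0.50 (rho 0.478, both permutation p = 1e-05), 0.490 without the 2 farthest samples and 0.575, 0.449 and 0.630 within the blocks. Fos and Nr4a1 had an r of 0.430 (rho 0.397, both permutation p = 1e-05), 0.436 without the 2 farthest samples and 0.285, 0.382 and 0.482 within the blocks, of which the value in block 1 had a permutation p of 0.0805. Fos and Jun, which form the classical AP-1 dimer, had an r of 0.245 (rho 0.245, both permutation p = 1e-05), 0.247 without the 2 farthest samples and 0.406, 0.157 and 0.314 within the blocks. This was the lowest r of Fos with any of the genes other than Btg2.

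Jun was closest to Dusp1 and Nr4a1. Its r with Dusp1 was 0.459 (rho 0.468, both permutation p = 1e-05), 0.462 without the 2 farthest samples and 0.572, 0.440 and 0.406 within the blocks. Its r with Nr4a1 was 0.446 (rho 0.450, both permutation p = 1e-05), 0.438 without the 2 farthest samples and 0.527, 0.327 and 0.565 within the blocks.

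**Figure D2:**
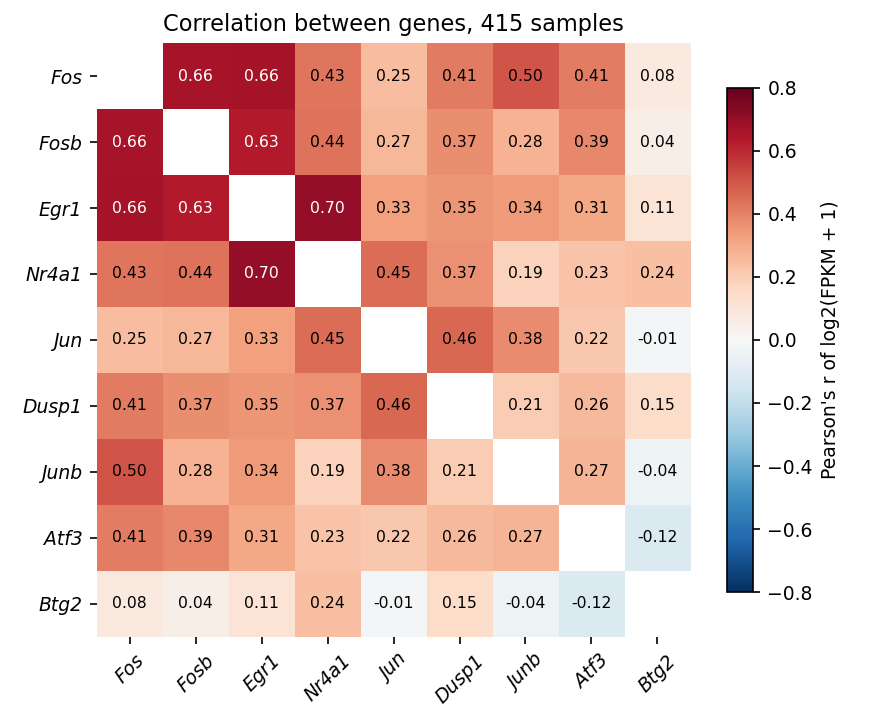
Pearson r of log2(FPKM + 1) for the 36 pairs of the 9 genes over all samples, as a colour scale with the value in each cell. The 4 highest values are those of Egr1 with Nr4a1, Fos and Fosb and of Fos with Fosb, and the cells of Btg2 lie between -0.12 and 0.24.

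Btg2 differed from the other genes in this respect. Its 8 pairs had r between -0.117 (Atf3) and 0.240 (Nr4a1), with a median of 0.0606. With the other gene as covariate 3 of the 8 passed, in fits that called 17.7% to 57.8% of all genes. Egr1 and Btg2, with an r of 0.112 (permutation p = 0.0223), did not pass with Egr1 as covariate (adjusted p from limma 0.0608) but did with Btg2 as covariate (0.0369). Btg2 rose with Nr4a1 (rho 0.247, both permutation p = 1e-05, adjusted p from limma 3.618e-06) and fell with Atf3 (permutation p = 0.0164 for r, rho -0.114 with permutation p = 0.0209). The latter had the highest adjusted p of the 31 calls, 0.0473 from limma, and did not pass with quantile normalization (0.0647), with 1 sample per title number (0.154) or without the samples under 3500000 reads (0.112). Within block 3 its r was 0.0233. With Fos its r was 0.0774 (permutation p = 0.114, rho 0.0446 with permutation p = 0.363, adjusted p from limma 0.276). With Dusp1 its r was 0.146 (permutation p = 0.00294, rho 0.247 with permutation p = 1e-05, adjusted p from limma 0.0126).

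The pair of Dusp1 and Btg2 differed in sign between blocks. Its r was -0.383 in block 1 (permutation p = 0.0157), 0.103 in block 2 and 0.406 in block 3 (permutation p = 1e-05). Within block 1 all 8 pairs with Btg2 were negative, between -0.426 (Jun) and -0.0494 (Fosb), and 4 of them had a permutation p under 0.05. Within block 3, 7 of the 8 were positive and 2 had a permutation p under 0.05. The differences between blocks were not tested. For the 28 pairs without Btg2, all r were positive within each block, and 19, 27 and 27 of them had a permutation p under 0.05 in blocks 1, 2 and 3.

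The same pattern was seen from the 9 genes together. The first principal component of their standardised values took 42% of the variance and the second 13.7%. The loadings on the first were highest for Egr1 (0.43) and Fos (0.42), then Fosb (0.39), Nr4a1 (0.37), Dusp1 (0.32), Jun (0.30), Junb (0.28) and Atf3 (0.27), and 0.07 for Btg2. Btg2 led the second component instead, with a loading of 0.74.

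**Figure D3:**
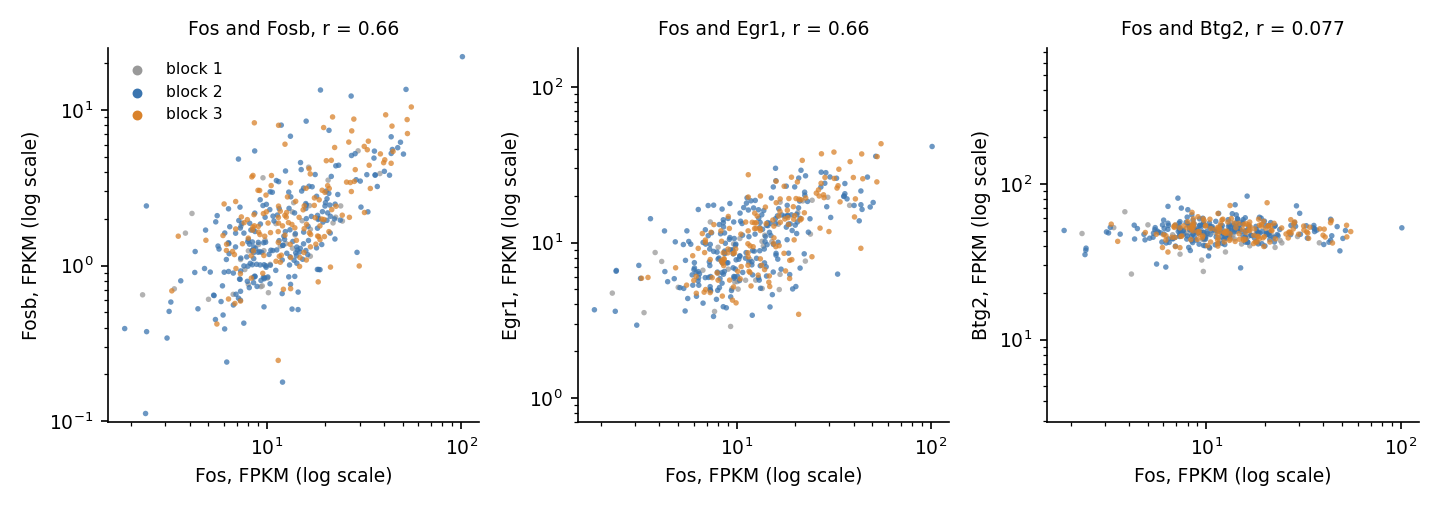
FPKM of other immediate early genes against FPKM of Fos in every sample on log axes of equal span, 1 point per sample, with colours for the 3 blocks. The points of Egr1 and Fosb rise with Fos, and those of Btg2 form a flat band across the whole range of Fos.

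Set against all genes, the limma fit on Fos called 17.8% of 16130 genes at an adjusted p of 0.05, and 8.57% as rising with Fos. Of the other 8 immediate early genes, 7 passed, all upward, and Btg2 did not. By r with Fos, Egr1 ranked 2, Fosb 3, Junb 4, Nr4a1 6, Dusp1 9 and Atf3 10 among the 16130 genes, whereas Jun stood at percentile 99.3 and Btg2 at percentile 79.2. Only 12 genes had an r above 0.4 with Fos, 6 of them in this list. The slope of log2(FPKM + 1) per unit of Fos was 0.59 ± 0.033 (SE) for Egr1, 0.56 ± 0.031 for Fosb, 0.38 ± 0.039 for Nr4a1, 0.22 ± 0.019 for Junb, 0.22 ± 0.024 for Atf3, 0.16 ± 0.018 for Dusp1 and 0.06 ± 0.012 for Jun. Slopes of low genes such as Fosb are understated on this scale.

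Within block 2 the fit on Fos called 6 of the 8 genes, against 4.65% of all, and Jun (adjusted p 0.130 from limma) joined Btg2 among those that did not pass. Within block 3 it called 7 of 8, against 0.899%. Within block 1, with 39 samples, it called 1 gene of all 16130 (0.0062%), and that gene was Dusp1 (slope 0.30, adjusted p 0.0170 from limma). With the reads per sample and a smooth curve of the title rank as covariates, 1570 genes and 7 of the 8 were called.

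The fits on the remaining genes called different shares of all genes. The fit on Fosb called 17.7% of all genes and 7 of 8 members, that on Egr1 35.6% and 7 of 8, that on Junb 41.1% and 7 of 8, and that on Jun 46.2% and 7 of 8. The fits on Atf3 (37.5%), Dusp1 (34.5%) and Nr4a1 (57.8%) each called 8 of 8, with Btg2 downward in the fit on Atf3. Ranks among all genes were less uniform than with Fos. By r with Nr4a1, Egr1 ranked 1 and Junb 3019, and by r with Jun, Dusp1 ranked 63 and Fos 1074. The fit on Btg2 called 63.2% of all genes, 31.5% upward and 31.6% downward, but 4 of the 8. These were Nr4a1, Dusp1 and Egr1 upward and Atf3 downward. Of all genes, 2.92% had an r above 0.4 with Btg2 and 1.04% an r below -0.4, and none of the other 8 genes was among them.

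Among genes outside the list, ENSRNOG00000014350 was the most like Fos, with an r of 0.683 over all samples (27.5 ± 10.2 FPKM). It was also the closest to Fosb (0.561), Egr1 (0.771), Nr4a1 (0.664) and the mean of the standardised values of the 9 genes (0.786). ENSRNOG00000054344 followed for Fos, with an r of 0.483, and was closest to Junb, with 0.634. The lowest r with Fos belonged to ENSRNOG00000011696, at -0.373, and ENSRNOG00000002338, at -0.313. These genes are given by identifier because their names could not be looked up here.

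Sequencing depth moved with part of the list. Per doubling of the reads in a sample, log2(FPKM + 1) was higher by 0.89 ± 0.18 (SE) for Nr4a1, 0.78 ± 0.20 for Fos, 0.66 ± 0.17 for Fosb, 0.55 ± 0.18 for Egr1 and 0.19 ± 0.053 for Btg2, and Dusp1 fell by 0.20 ± 0.082. These 6 of the 9 passed in limma, against 70% of all genes, 41.7% upward and 28.3% downward. Jun, Junb and Atf3 did not pass. With a smooth curve of the title rank as a covariate 4 of the 9 passed, since Egr1 (0.36, adjusted p 0.0832 from limma) and Btg2 (0.10, adjusted p 0.105) did not. Quantile normalization turned the direction of Dusp1 (0.08, not passing), and Jun and Junb then passed (0.15 and -0.20). Without the 12 samples under 3500000 reads, Btg2 turned and still passed (-0.15, adjusted p 0.0355 from limma), Dusp1 no longer passed (adjusted p 0.0745) and Atf3 did (0.48). The slope of reads with depth, where 1 is proportional, was lower in genes with more reads per base. It was 1.26 at 0.02 to 0.05 reads per base and 1.19 at 0.05 to 0.1. It fell to 1.04 at 0.1 to 0.2 and 0.87 at 0.2 to 0.3. Dusp1 (0.81) and Atf3 (1.22) were near genes of like reads per base, and Junb (0.88) was below them. Jun (0.96), Btg2 (1.15), Egr1 (1.57), Fos (1.80) and Nr4a1 (1.88) were above them. The part of depth in the spread of these genes was not tested beyond the fits that hold it as a covariate.

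Levels were next followed along the title numbers, as the change of log2(FPKM + 1) over the whole range of the rank of the number. Nr4a1 had block medians of 3.61, 5.04 and 6.49 FPKM in blocks 1, 2 and 3, and its change was 0.71 ± 0.12 (SE, adjusted p 9.217e-09 from limma). Egr1 had medians of 7.60, 9.76 and 11.7 FPKM and a change of 0.50 ± 0.12 (adjusted p 8.972e-05 from limma). Block ranges overlapped widely for both, for example 1.13 to 17.9 FPKM in block 1 and 1.33 to 47.2 in block 3 for Nr4a1.

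Both Fos genes also rose. Fos had medians of 10.4, 11.2 and 13.4 FPKM and a change of 0.39 ± 0.14 (adjusted p 0.00774 from limma), which no longer passed with log2 reads as a covariate (0.27, adjusted p 0.0942). Fosb had medians of 1.46, 1.42 and 2.01 FPKM and a change of 0.41 ± 0.11 (adjusted p 0.000747 from limma).

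The less variable genes moved less. Jun rose by 0.13 ± 0.035 (adjusted p 0.000362 from limma) and Btg2 by 0.15 ± 0.034 (adjusted p 4.824e-05). Junb was the one member that fell, by 0.18 ± 0.060 (adjusted p 0.00479 from limma). Dusp1 (0.11 ± 0.054, adjusted p 0.0632) and Atf3 (0.09 ± 0.072, adjusted p 0.259) did not pass in limma. Dusp1 did pass with quantile normalization (0.17), with log2 reads as a covariate (0.16) and without the 12 samples under 3500000 reads (0.14).

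In all, 7 of the 9 genes changed along the title numbers, 6 upward and 1 downward. Of all genes 61.3% did, 31% upward and 30.2% downward, so that such a change was common. The median change was 0.15 over the 9 genes and 0.0018 over all genes.

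**Figure D4:**
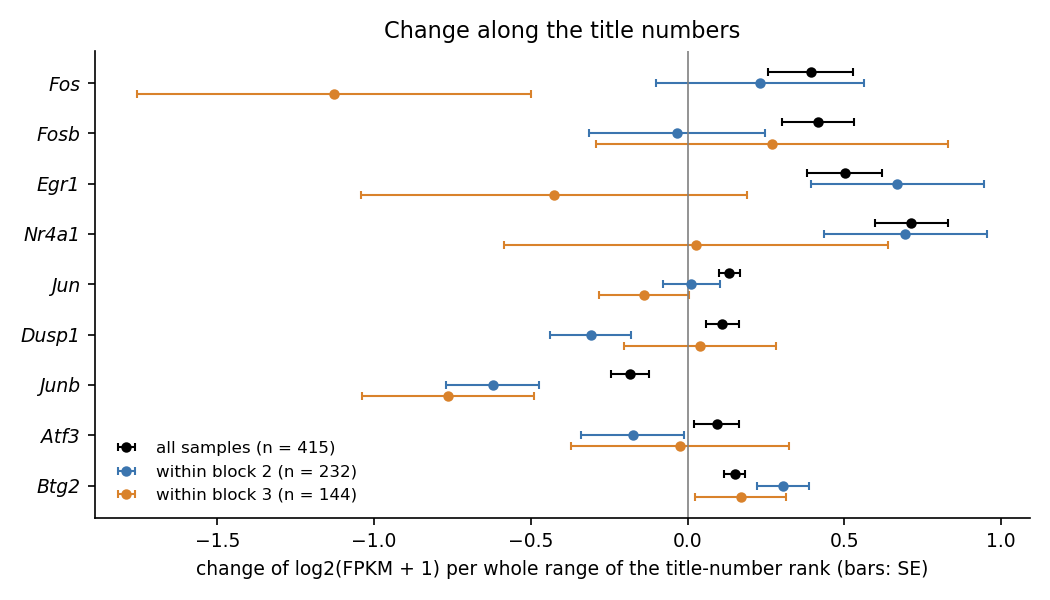
Change of log2(FPKM + 1) over the whole range of the title-number rank for each of the 9 genes, with bars for the standard error, over all samples and within blocks 2 and 3. Over all samples Nr4a1 and Egr1 lie farthest to the right and Junb lies left of 0.

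Within single blocks fewer of the 9 genes passed. In block 2, 5 of the 9 passed, against 56.6% of all genes, 28.4% upward and 28.1% downward. These were Nr4a1 (0.69), Egr1 (0.67) and Btg2 (0.30) upward, and Junb (-0.62) and Dusp1 (-0.31) downward. All values within blocks are slopes scaled to the whole range of the rank, of which a block covers only a part. In block 3 limma called 0 of the 9, against 6.53% of all genes, and 1 of the 9, Junb (-0.76), had an unadjusted p under 0.05. In block 1 limma called 0 of the 9 and 0% of all genes, and 0 of the 9 had an unadjusted p under 0.05, whereas 1526 of all genes did. The median change there was 1.41 over the 9 genes and 0.062 over all genes. With 39 samples this fit cannot tell whether the 9 change within block 1. A test of whether the slope differed between blocks 2 and 3 called 0 of the 9, against 29.2% of all genes, and voom on recovered reads also called 0. None of the 9 had an unadjusted p under 0.05 in that test, and the widest difference, that of Fos, was -1.36 ± 0.74 (adjusted p 0.155 from limma).

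Levels differed between the 3 blocks for 8 of the 9 genes, against 53% of all genes, by an F test in limma. Junb was the exception (23.3 ± 4.56, 23.5 ± 6.55 and 22.9 ± 5.92 FPKM, adjusted p 0.768). Fos had means of 12.9 ± 7.54, 14.4 ± 11.1 and 16.9 ± 10.6 FPKM (adjusted p 0.00913), and no longer passed with log2 reads as a covariate (adjusted p 0.0620). Atf3 (adjusted p 0.0210 from limma) no longer passed with quantile normalization (0.0840) or with blocks cut at gaps above 250 (0.0567). Btg2 was lower in block 1 (45.3 ± 7.55 FPKM) than in blocks 2 and 3 (50.1 ± 7.52 and 50.3 ± 6.38 FPKM), with an adjusted p of 0.000275. Median reads per sample were also higher in later blocks, at 4409766, 4567750 and 4789737 in blocks 1, 2 and 3.

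Finally, each sample was set against the others that carried its title number. Resemblance is given as an intraclass correlation, which is 1 for identical pairs and near 0 for pairs no more alike than any others. An F test in limma between the 89 shared numbers called 8 of the 9 genes, against 57.5% of all genes, and Fosb did not pass (adjusted p 0.150).

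Egr1 and Dusp1 had the highest resemblance of the 9, 0.491 and 0.461, at percentiles 94 and 91.2 of all genes (adjusted p 5.371e-06 and 5.326e-06 from limma). Btg2 (0.420), Jun (0.380) and Nr4a1 (0.377) followed, at percentiles 85.7, 79.7 and 79.2. Fos (0.245), Atf3 (0.217), Junb (0.203) and Fosb (0.144) lay near or below the median of all genes, 0.228. Fos, with an adjusted p of 0.0186 in limma, no longer passed with log2 reads as a covariate (0.0519), and Junb, with 0.0355, no longer passed once a smooth curve of the title rank was removed (0.196). Fos and Egr1, which followed each other across samples, thus differed in how alike samples of the same number were, but that difference was not tested.

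**Figure D5:**
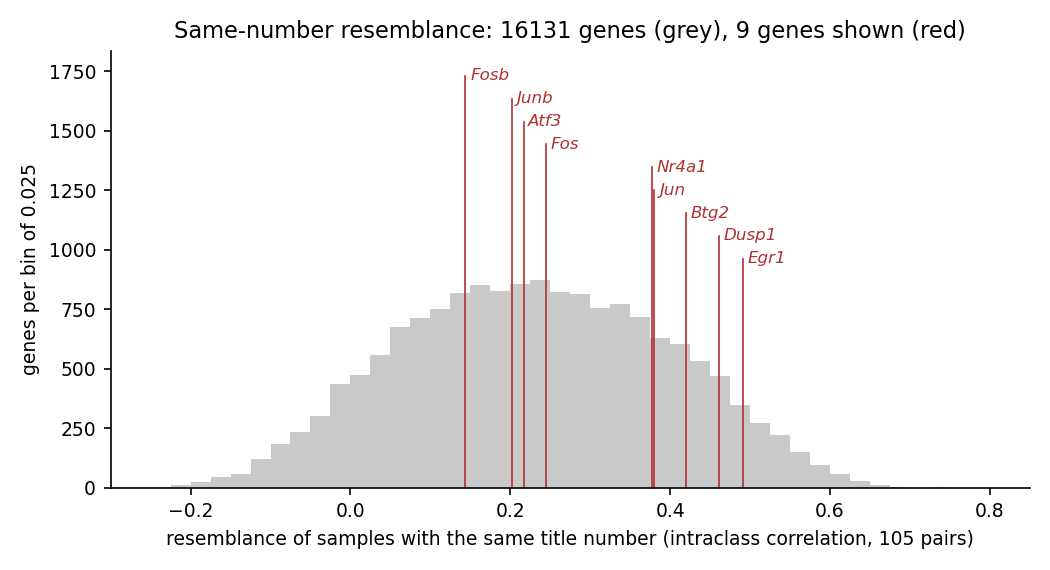
Histogram of the resemblance of samples with the same title number (intraclass correlation) for 16131 genes in grey, with a red line for each of the 9 genes, whose height only separates the names. Egr1 and Dusp1 lie in the right shoulder, and Fosb, Junb, Atf3 and Fos lie near the middle.

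Differences within pairs were also set beside those between numbers. The median difference of log2(FPKM + 1) for Egr1 was 0.39 between samples with the same number and 0.70 between samples with different numbers of the same block. For Nr4a1 these were 0.49 and 0.63, and for Dusp1 0.24 and 0.30. For Fos they were 0.68 and 0.74, and for Fosb the same-number difference, 0.68, was the larger of the 2 (0.58 for different numbers).

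Single numbers ranged widely in Fos. Title number 62378 held the highest sample, at 101.4 FPKM, and its partner was at 42.7. Title number 62653 held 47.1 and 43.6 FPKM. By contrast, title number 64038 held 43.6 and 3.24 FPKM, the widest pair, and title number 62896 held 48.7 and 6.37. Of the 20 samples highest in Fos, 15 had a partner with the same number, and 11 of these 15 had one above the median of Fos. Title numbers 62378, 62653 and 63942 had partners that were both among the 20, so these pairs count from both sides. The like share for other samples was not computed. All the pairs named here were picked after their values were seen.

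By the intraclass correlation, samples with neighbouring numbers were less alike than samples with the same number in all 9 genes. The medians over all genes stood in the same order, at 0.116 for neighbours and 0.228 for the same number. Over pairs of samples next to each other in the order of the titles, with different numbers, resemblance was 0.0984 for Egr1, 0.138 for Dusp1 and 0.0162 for Btg2, against a median of 0.116 over all genes. Jun had the highest value of the 9 between neighbours, 0.280. By the median difference, neighbours were closer than samples of the same number for Fosb (0.57 against 0.68), while for Fos (0.67 and 0.68) and Jun (0.16 and 0.17) the 2 were nearly equal. With a smooth curve of the title rank removed, Egr1 stayed at 0.487 and Dusp1 at 0.437, whereas Junb went from 0.203 to 0.0989. Within blocks 1, 2 and 3, from 9, 49 and 47 pairs, resemblance was 0.684, 0.304 and 0.608 for Egr1, 0.747, 0.432 and 0.403 for Dusp1, and 0.515, 0.516 and 0.163 for Btg2.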

How the data were processed

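Per the labels' protocols, RNA from frozen adipose tissue was sequenced with single-end reads. The submitters' processing notes name STAR, Picard, featureCounts and DESeq2 without versions or roles, and the genome build and annotation are not given in the sources used here. The authors deposited 1 table of 18358 genes and 415 samples. Its header gives no unit, but every deposited value was a whole read number divided by a whole gene length and a sample factor, so the values were taken as FPKM scaled between samples. Whole reads were recovered for 100% of values, within 0.001.

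Values were analysed as log2(FPKM + 1). The filter kept 16131 genes whose FPKM exceeded 1 in 20% of samples or more. Tests used limma 3.58.1 in R 4.3.3 over all kept genes with Benjamini-Hochberg adjustment at 0.05. They were tried on these values with the samples shuffled and known effects added. Shuffling removes any likeness of samples with the same or neighbouring numbers, so the trial does not cover it. Correlations and their 100000 permutations used numpy 2.4.6, with ranks from scipy 1.17.1. There were 318 title numbers. The 89 shared ones covered 186 samples and 105 pairs, beside 317 pairs of neighbours. Blocks 1 to 3 held 39, 232 and 144 samples. The title rank was scaled from 0 to 1. The spline had 5 degrees of freedom.

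All 9 genes are named; outside them, at most 2 identifiers are given for the highest and lowest correlation. The members and lists were chosen with earlier results of these data known. Pathway and cell marker lists could not be matched to identifiers, so they are not analysed here. Alternatives were quantile normalization, a pseudocount of 0.1, a filter at 80% or none, voom, 1 sample per number, blocks from gaps above 250, covariates and values within blocks. Leaving out samples under 3500000 reads or the 5 highest in Fos was added after seeing the data.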

Additional observations from a re-analysis of the deposited data

How the results depend on the processing

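Depth limits Fosb most, with 41.2 reads per sample on average. Between 30 and 31 of 36 pairs were called in the 6 alternatives run, but Atf3 with Btg2 was lost in 3 of them, and Egr1 with Btg2 was gained with quantile normalization and with 1 sample per number. The 61.3% of genes and 7 members that changed along the title numbers became 0% and 0 within block 1 and 6.53% and 0 within block 3, where fewer samples were fitted. Genes following Fos went from 17.8% to 11.3% without the samples under 3500000 reads, 9.73% with reads and a spline as covariates, and 0.0062%, 4.65% and 0.899% within blocks 1, 2 and 3. Members following Fos went from 7 to 1 within block 1, with 39 samples.

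Some directions turned, and the cause was not tested. Changes along the title numbers, scaled to the whole range of the rank, turned for Fosb (-0.71) and Junb (0.93) within block 1. They turned for Fosb (-0.034), Atf3 (-0.18) and Dusp1 (-0.31) within block 2. They turned for Fos (-1.13), Jun (-0.14), Atf3 (-0.025) and Egr1 (-0.43) within block 3. Only that of Dusp1 passed. Without the samples under 3500000 reads, the difference in slope of Btg2 between blocks 2 and 3 was 0.030, and the relation with reads was 0.0064 for Jun and -0.15 for Btg2. With quantile normalization it was 0.15 for Jun, which passed, -0.038 for Atf3 and 0.078 for Dusp1. The slope of Btg2 on Fos was -0.032 within block 1. The r of Jun and Btg2 was 0.0171 with quantile normalization, 0.0373 with 1 sample per number and 0.00943 without the samples under 3500000 reads. The r of Junb and Btg2 was 0.00655 after removing reads and a spline, and 0.0134 without those samples.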

Other observations

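The relation of Jun and Btg2 differed by the measure used. Over all samples r was -0.00737 (permutation p = 0.881) and rho was 0.140 (permutation p = 0.00427). Within block 2 r was -0.0332 and rho 0.173, and r became 0.0755 without the 2 samples farthest from the median of Jun. One sample of block 2 (title number 62335, suffix 3) combined 79.7 FPKM of Jun with 38.7 of Btg2 and 2.40 of Fos, the fifth lowest Fos. The sample with the highest Jun (title number 64199, suffix 4), at 82.7 FPKM, was also the highest in Nr4a1, at 47.2 FPKM.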
